A study of Sus scrofa with 34 samples.

Results

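Genes of the mucus layer and of antimicrobial secretion were followed in the ileum of piglets, the last segment of the small intestine, and set against the liver of the same animals. The 10 genes were taken from the count tables by symbol: MUC2, TFF3, FCGBP, AGR2, ZG16, LYZ, REG3G, DMBT1, PIGR and LCN2. Pig Ensembl identifiers could be paired with 6 of the 10 symbols, namely MUC2, TFF3, AGR2, LYZ, PIGR and LCN2, out of 25880 genes in the tables. FCGBP, ZG16, REG3G and DMBT1 were not analysed here. The rows were found by symbol alone, and the list of symbols was drawn up with earlier results of these data known.

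The ileum was sequenced in 5 piglets of the control group (basal diet) and 5 of the PFA group (the same diet with a phytogenic feed additive based on essential oils). The liver was sequenced in 6 piglets each of the control, PFA, OO (diet with oxidized oil) and OO + PFA groups, and all 10 ileum pigs also gave a liver library. By the study's diet composition, the oxidized oil was added to the basal diet and not exchanged for fresh oil. The OO diets thus held more fat and energy, and oxidation of the oil cannot be told apart from that addition. All were weaned crossbred piglets of both sexes from 1 genetic cross, with no transgene or deletion, sampled at day 28 of feeding. The pigs of a diet shared 1 pen, and an effect of the pen cannot be told apart from one of the diet. Individual pigs are named by diet letter and number (C, P, OO and OP for OO + PFA). The study set aside 1 OO + PFA liver for suspected RNA degradation without naming the pig. OP-77 was taken to be that library and left out of the liver fits, since 23.2% of its read pairs had several alignments, against at most 11.6% in any other library. Counts on genes ranged from 18772230 to 24338165 per ileum library and from 18738055 to 42446834 per liver library.

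The intestinal surface is covered by a gel that goblet cells secrete. MUC2 is the gel-forming mucin that builds this layer, TFF3 is a small trefoil peptide packed and released with it, and AGR2 is a disulfide isomerase of the endoplasmic reticulum needed for MUC2 folding. LYZ is lysozyme, which cleaves the bacterial cell wall and is a classical product of Paneth cells as well as of macrophages. PIGR is the receptor that carries polymeric IgA across the epithelium, and LCN2 is lipocalin 2, a protein that binds bacterial siderophores and is induced in epithelium and liver during inflammation. In whole tissue, fewer cells of a type and less RNA per cell cannot be told apart.

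The libraries carried the markers of their tissue. All 9 matched hepatocyte genes failed the filter on low counts in the ileum, where TTR, AHSG and CYP2E1 had no count at all, and the summed hepatocyte level was at most 1.68 CPM (counts per library total, scaled by the TMM method to the same number of counts in every library). The 10 enterocyte genes summed to between 20140 and 37925 CPM in the ileum. Of the Paneth cell list, 5 of 9 genes were matched and 3 passed the filter (LYZ, SOX9 and NOTUM). One control pig, C-80, stood apart by its B cell genes, whose summed level was 652.5 CPM against 25.0 to 39.7 CPM in the other 9 ileum libraries, so the diet differences of the members and of the B cell genes are also given without it.

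The 250 bases upstream of the annotated start are shown for MUC2 and TFF3, which varied together between pigs (below), and for AGR2, whose relation to MUC2 did not pass the test. The relation of MUC2 and TFF3 did not pass it either once each library's trend with GC content was removed. The windows are RefSeq sequences on Sscrofa11.1, written 5′ to 3′ on the gene's strand, in lower case with the matched motifs in capitals. Their GC content is 65.2% for MUC2, 57.6% for TFF3 and 40.8% for AGR2, and its part in the matches was not tested. MUC2 lies on chromosome 2 at 689363 to 719542 on the plus strand and its window is chr2:689113-689362. TFF3 lies on chromosome 13 at 205641038 to 205644333 on the minus strand, and its window is chr13:205644334-205644583. AGR2 lies on chromosome 9 at 86042070 to 86053893 on the minus strand, with the window chr9:86053894-86054143.
MUC2: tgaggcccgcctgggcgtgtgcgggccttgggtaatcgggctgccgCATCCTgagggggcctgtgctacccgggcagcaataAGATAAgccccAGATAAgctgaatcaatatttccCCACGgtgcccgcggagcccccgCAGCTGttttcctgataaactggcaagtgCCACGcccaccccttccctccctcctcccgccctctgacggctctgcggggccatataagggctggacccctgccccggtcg
TFF3: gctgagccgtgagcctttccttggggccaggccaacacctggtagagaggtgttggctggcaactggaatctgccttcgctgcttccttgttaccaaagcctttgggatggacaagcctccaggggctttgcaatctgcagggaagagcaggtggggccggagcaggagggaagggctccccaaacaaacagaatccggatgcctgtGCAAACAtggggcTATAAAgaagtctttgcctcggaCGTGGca
AGR2: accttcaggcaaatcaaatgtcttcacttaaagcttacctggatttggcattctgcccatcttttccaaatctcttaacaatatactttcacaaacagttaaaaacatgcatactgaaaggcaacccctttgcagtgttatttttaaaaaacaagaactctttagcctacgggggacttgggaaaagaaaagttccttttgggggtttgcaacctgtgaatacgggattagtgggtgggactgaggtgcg

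In all, 10 motifs were searched on both strands in these windows and in 13733 windows of the same kind. The MUC2 window held the ATOH1-type E-box CAGCTG (in 13.1% of all windows), the GATA site AGATAA at 2 places (in 6.76% of windows), the stress element core CCACG at 2 places (37.3%) and the ETS core AGGATG of the type bound by SPDEF (11.9%), the last printed as CATCCT because it lies on the other strand. The TFF3 window held the TATA box TATAAA (7.94% of windows) 30 bases before the start, the FOX-type site TGTTTGC (2.96%) on the other strand 43 bases before the start, and CCACG on the other strand. The printed matches do not overlap one another. The AGR2 window held none of the 10 motifs, nor did that of LYZ, and PIGR and LCN2 each held 1 (AGGATG and CAGCTG, respectively). The other searches, TGTTTAC (2.08% of windows), the kappa B site (27.3%), the CDX-type site TTTATG (6.76%) and the IRF-type site (2.56%), had no match in a member. A match is a description of letters only.

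Per kilobase of RefSeq exon, LYZ ranked highest in the ileum, with a median of 820.7 CPM per kb over the 10 pigs, followed by AGR2 with 409.7 and PIGR with 300.0 CPM per kb. TFF3 had a median of 120.4, MUC2 of 15.3 and LCN2 of 1.44 CPM per kb. The range of LYZ, 71.6 to 2129 CPM per kb, spanned those of AGR2 (308 to 578) and PIGR (225 to 349), so the order of these 3 is not fixed by the spread between pigs. The lowest pig for AGR2 lay above the highest for TFF3 (250), the lowest for TFF3 (56.1) above the highest for MUC2 (23.7), and the lowest for MUC2 (5.02) above the highest for LCN2 (3.45). PIGR and TFF3 overlapped at 225 to 250 CPM per kb. MUC2 has the longest exon sequence of the 6, with 16139 bases, and read pairs with several alignments, which can come from repeats, were not counted. Lengths are those of RefSeq exons while the counts are per Ensembl gene, and the bearing of this on the order was not tested.

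No member passed the test between PFA and control ileum. In the edgeR quasi-likelihood test 0 of 6 members were called at an adjusted p of 0.05 and a fold of 2, against a background of 0.0% of the 14300 genes tested. At an unadjusted p below 0.05 there was 1 member, AGR2, of 6, where 2.8% of all genes (401) passed that mark. DESeq2 called 2 genes of the whole table and no member. In all, 3 members were higher and 3 lower with PFA, and their median log2 fold change was -0.15 beside 0.02 over all genes.

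**Figure D1:**
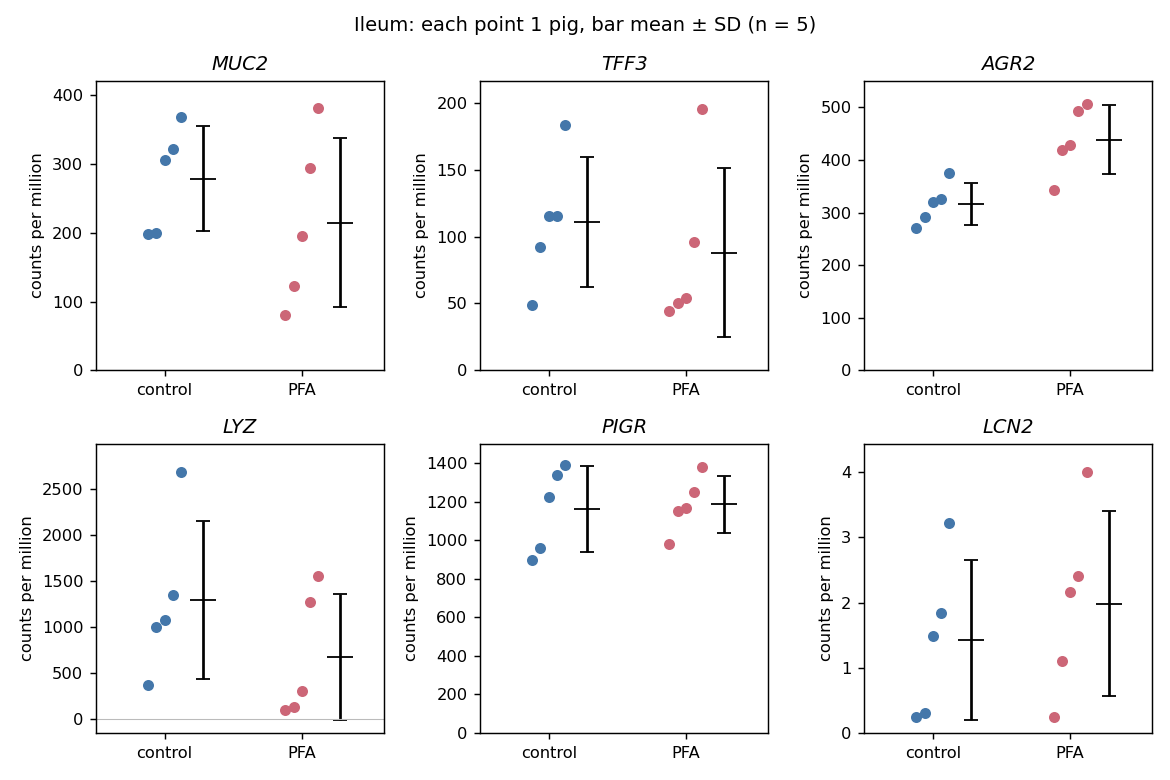
Level of the 6 members in the ileum in CPM (vertical axes, linear), with 1 point per pig for the control and PFA groups and a bar for mean ± SD (n = 5 per group). The groups overlap in every panel. In that of AGR2, 4 of the 5 PFA pigs lie above all control pigs.

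Among the genes that build the gel, AGR2 stood nearest to a difference. Its level in the control pigs was 292 CPM in C-71, 270.1 in C-80, 319.6 in C-92, 376 in C-100 and 326 in C-110. In the PFA pigs it was 418 CPM in P-75, 429 in P-95, 493 in P-107, 344 in P-134 and 507 in P-138. Of the 5 PFA pigs, 4 lay above the highest control pig, and only P-134 fell within the control range. The group means were 317 ± 39.9 CPM in controls and 438 ± 65.5 CPM with PFA (SD, n = 5 each), a log2 difference of 0.47 (SE 0.13) with an edgeR adjusted p of 0.991 over all genes. Without C-80 the log2 difference was 0.42 (SE 0.14), and without P-134 it was 0.54 (SE 0.12), the adjusted p then being 1.00 and 0.329. AGR2 has a GC content of 43.9%, and removing each library's trend with GC content left a log2 difference of 0.30 (SE 0.11).

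MUC2 was measured at 368 CPM in C-71, 305.5 in C-80, 200.1 in C-92, 322 in C-100 and 199 in C-110. With PFA it was 122 CPM in P-75, 195 in P-95, 295 in P-107, 382 in P-134 and 81.1 in P-138. The PFA group held both the lowest and the highest pig, and its spread was the wider. Means were 279 ± 76.2 CPM in controls and 215 ± 124 CPM with PFA (SD, n = 5 each), and the log2 difference of -0.38 (SE 0.37) had an edgeR adjusted p of 0.991. Without P-134 it was -0.69 (SE 0.34, adjusted p 0.377), and without P-138 -0.17 (SE 0.31, adjusted p 1.00). Without C-80 it was -0.34.

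TFF3 also had wide and overlapping groups. Controls had 183 CPM in C-71, 115.1 in C-80, 92.6 in C-92, 115.4 in C-100 and 48.5 in C-110, and PFA pigs 44.0 in P-75, 54.3 in P-95, 96.2 in P-107, 196 in P-134 and 50.2 in P-138. Of the PFA pigs, 3 lay between 44.0 and 54.3 CPM, beside C-110, while P-134 was the highest of all. The log2 difference was -0.33 (SE 0.44, edgeR adjusted p 0.991). It was -0.86 (SE 0.35, adjusted p 0.331) without P-134 and -0.08 (SE 0.44, adjusted p 1.00) without C-71, while leaving out C-80 gave -0.32.

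Of the antimicrobial and transport genes, LYZ varied most. It was 1073 CPM in C-71, 1348 in C-80, 1001 in C-92, 362 in C-100 and 2691 in C-110, against 90.5 in P-75, 1553 in P-95, 128.6 in P-107, 1276 in P-134 and 303 in P-138. The 3 lowest of the 10 pigs were on PFA, but the other 2 PFA pigs lay among the controls. Means were 1295 ± 860 CPM in controls and 670.1 ± 691 CPM with PFA (SD, n = 5 each), and the log2 difference was -0.95 (SE 0.76, edgeR adjusted p 0.991). Leaving out C-110 brought it to -0.50 (SE 0.77, adjusted p 0.795) and leaving out P-95 to -1.52 (SE 0.79, adjusted p 1.00). It was -0.94 without C-80.

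PIGR had the smallest ratio of highest to lowest pig of the 6 members. Its level was 1225 CPM in C-71, 897 in C-80, 961 in C-92, 1391 in C-100 and 1339 in C-110, and 1166.5 in P-75, 1151 in P-95, 1379 in P-107, 1252 in P-134 and 979.7 in P-138. The ranges nearly coincided, and the log2 difference was 0.03 (SE 0.15, edgeR adjusted p 0.995), and -0.05 (SE 0.14) without C-80.

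LCN2 was close to the detection limit of the ileum libraries, with 5 to 97 counts each. Controls had 0.251 CPM in C-71, 0.305 in C-80, 1.84 in C-92, 1.49 in C-100 and 3.22 in C-110, and PFA pigs 0.249 in P-75, 2.16 in P-95, 1.10 in P-107, 3.99 in P-134 and 2.41 in P-138. Both groups contained pigs below 0.31 CPM and pigs above 3 CPM. The log2 difference was 0.51 (SE 0.73, edgeR adjusted p 0.991), and 0.24 (SE 0.72) without C-80.

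The spread between pigs of one diet separated the members into steady and variable genes. The SD of log2 CPM within diets was 0.20 for AGR2 and 0.24 for PIGR, below the median of 0.30 over all 14300 genes. It was 0.71 for MUC2, 0.80 for TFF3, 1.41 for LCN2 and 1.51 for LYZ, which placed MUC2 at the 91.0th and LYZ at the 99.5th percentile of all genes. The highest pig exceeded the lowest 1.55-fold for PIGR, 1.88-fold for AGR2, 4.71-fold for MUC2, 4.45-fold for TFF3, 16.1-fold for LCN2 and 29.7-fold for LYZ.

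**Figure D2:**
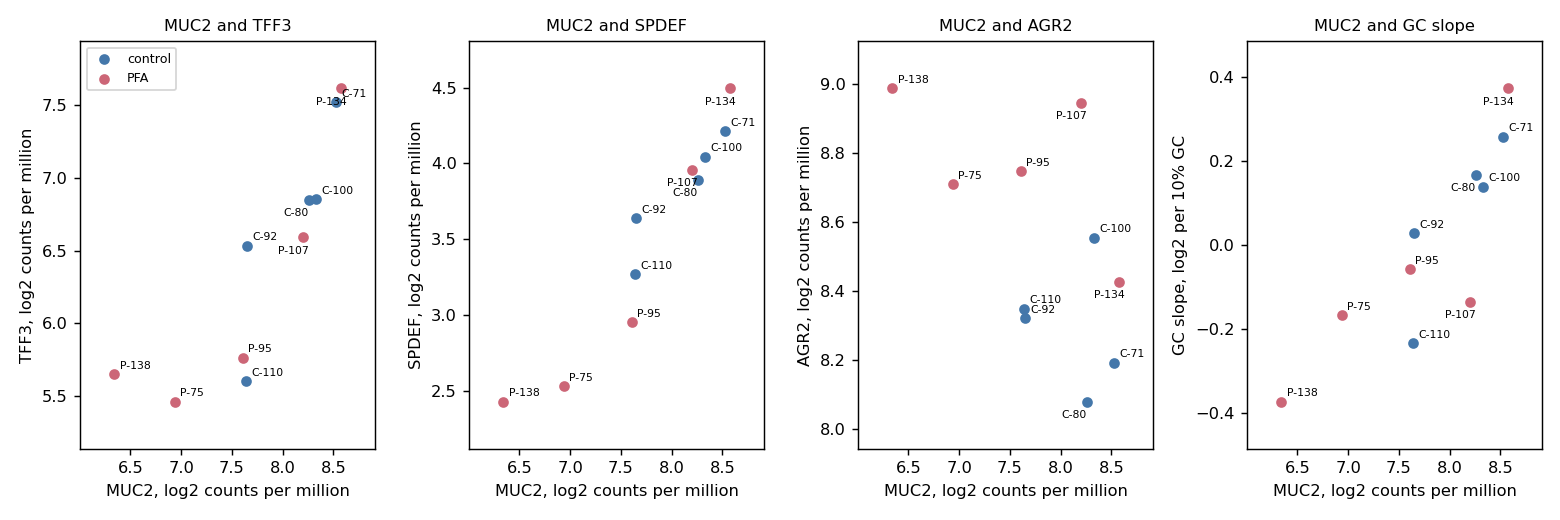
Level of TFF3, SPDEF and AGR2 and the GC slope of each library (vertical axes: log2 CPM, and log2 units per 10% GC) against the level of MUC2 in log2 CPM (horizontal axis) in the 10 ileum pigs, control in blue and PFA in red. TFF3, SPDEF and the GC slope are higher where MUC2 is higher, with P-138 lowest and P-134 highest for MUC2.

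MUC2 and TFF3 varied together between pigs. Over the 10 ileum pigs Pearson's r of their log2 CPM was 0.85 (permutation p = 0.00128, adjusted 0.0064 over 5 relations) and Spearman's rho was 0.94 (permutation p = 0.00023, adjusted 0.00115). Without the 2 pigs farthest from the MUC2 median r was 0.91, and after subtraction of the diet means it was 0.84 (permutation p = 0.00258, adjusted 0.0129). Neither AGR2 (r = -0.57, rho = -0.56, permutation p = 0.0867 and 0.0963, adjusted 0.217 and 0.241), PIGR (r = 0.39, rho = 0.36, permutation p = 0.270 and 0.312, adjusted 0.398 and 0.519), LYZ (r = 0.35, rho = 0.22, permutation p = 0.319 and 0.537, adjusted 0.398 and 0.671) nor LCN2 (r = -0.11, rho = -0.03, permutation p = 0.773 and 0.946) passed the threshold with MUC2. Without the 2 farthest pigs, r with MUC2 was -0.18 for AGR2, 0.22 for PIGR, -0.34 for LYZ and -0.40 for LCN2.

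The libraries also differed in how counts depended on GC content, and this moved with both genes. The slope of log2 CPM on GC content, taken over 11358 genes, ran from -0.37 log2 units per 10% GC in P-138 to 0.37 in P-134. These genes are 94.0% of the named genes that passed the filter but 79.4% of all that passed, so the slope does not describe the whole table. MUC2 (61.5% GC) followed it with r = 0.85 (rho 0.90, permutation p = 0.00156 and 0.00065, adjusted 0.00468 and 0.00216 over 6 relations) and TFF3 (58.9% GC) with r = 0.91 (rho 0.90, permutation p = 0.00058 and 0.00072, adjusted 0.00348 and 0.00216), and without the 2 pigs of most extreme slope r was 0.72 and 0.88. AGR2 gave r = -0.66 with the slope (rho -0.62, permutation p = 0.0429 and 0.0612, adjusted 0.0859 and 0.122), and r was -0.60 without these 2 pigs. LYZ, PIGR and LCN2 gave r of 0.37, 0.08 and -0.17 (rho 0.27, 0.02 and -0.12, permutation p = 0.296, 0.833 and 0.642, adjusted 0.443, 0.833 and 0.770, and 0.451, 0.972 and 0.759 for rho, adjusted 0.676, 0.972 and 0.910), and 0.23, -0.33 and -0.46 without the 2 pigs. After each library's trend with GC content was removed, r of MUC2 with TFF3 was 0.71 (rho 0.70, permutation p = 0.0188 and 0.0303, adjusted 0.0942 and 0.123), no longer past the threshold, and r of MUC2 with AGR2 was -0.08.

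The genes whose pattern over the 10 pigs was most like that of MUC2, among 14299 others, were CHRD (r = 0.98), ENSSSCG00000039926 (r = 0.97), SCARF1, SLC22A23 and ENSSSCG00000010280 (r = 0.96 each). GC content was known for 3 of these 5, between 61.3% and 63.2%, too few for a check of GC content over the set. All 10 pigs share this measure with the GC slope, and these values are a description. For the 3 with known GC content, r was also taken after removal of the GC trend, with ranks among 11357 others. It was 0.79 for CHRD (rank 93), 0.72 for SCARF1 (rank 285) and 0.95 for SLC22A23 (rank 1). Within the list of goblet cell genes the likeness was uneven. SPDEF, the ETS factor of goblet cell maturation, ranked 7th with r = 0.96, at 5.29 CPM in P-138 and 22.4 CPM in P-134. TFF2 had r = 0.91 and ATOH1, the factor that commits cells to the secretory lineage, r = 0.85, and after removal of the GC trend these 3 genes had r of 0.90, 0.87 and 0.85. CREB3L1 went from r = 0.83 to 0.18 and FOXA3 from 0.59 to 0.05 in that comparison, whereas CLCA1, a secreted goblet cell protein, went from 0.25 to 0.67. Other genes of the list had a negative r with MUC2, namely NR3C1 (-0.62), SYTL2 (-0.46), RETNLB (-0.44), HEPACAM2 (-0.22), FOXA1 (-0.17) and BCAS1 (-0.12), and with the GC trend removed these were 0.03, -0.01, -0.26, 0.53, 0.25 and 0.24. The 5 genes most like LCN2 were ENSSSCG00000008001 (r = 0.95), CCDC158 (r = 0.93), ENSSSCG00000029449 (r = 0.89), STEAP1 (r = 0.88) and GPM6A (r = 0.87), 4 of them with a mean of 1.05 CPM or less. With the GC trend removed, CCDC158, STEAP1 and GPM6A had r of 0.74, 0.77 and 0.90 with LCN2.

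No other gene of goblet cells and mucus was called between the diets. Of 17 goblet cell genes tested (19 matched of 25 listed), 4 were higher and 13 lower with PFA, none called, with a median log2 fold change of -0.09 against 0.02 over all genes. The most abundant, CLCA1, had a mean of 1616.5 ± 214 CPM in controls and 1600 ± 312 CPM with PFA (SD, n = 5 each), and SPINK4 had 126.4 ± 11.5 and 132 ± 48.3 CPM. NR3C1, the glucocorticoid receptor, had 94.5 and 91.9 CPM. FOXA1, a forkhead factor of the secretory lineage, had 12.8 ± 1.66 CPM in controls and 16.4 ± 1.19 CPM with PFA, with a log2 difference of 0.36 (SE 0.13, edgeR adjusted p 0.991). TFF2 had a log2 difference of -0.42 (SE 0.25) and CREB3L1 one of -0.25 (SE 0.20). Of the 14 mucins listed 3 were matched, and MUC13, a membrane mucin, was the only one past the filter, at 1254 ± 206 CPM in controls and 1162 ± 212 CPM with PFA.

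The enzymes that attach and extend mucin O-glycans gave 9 higher and 5 lower of 14 tested, none called, with a median log2 difference of 0.11. ST6GALNAC1, which adds sialic acid to the first sugar of the chain, was at 40.7 ± 7.19 CPM in controls and 30.2 ± 7.29 CPM with PFA (log2 difference -0.43, SE 0.18, edgeR adjusted p 0.991). GALNT3 and GALNT10, which add the first sugar, differed by 0.33 (SE 0.20) and 0.13 (SE 0.08), and the abundant GALNT7 and GALNT1 by 0.04 and 0.09. ST3GAL1 ranged from 13.7 CPM in P-138 to 581 CPM in P-134, so its log2 difference of 0.78 had an SE of 1.17.

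Of 16 further antimicrobial genes tested (26 matched of 45 listed), 9 were higher and 7 lower, none called, with a median log2 difference of 0.04. The study's gene set enrichment analysis reported its set of antimicrobial peptides as reduced with PFA. That method used all genes and a Reactome gene set, unlike the list here, and no such analysis was run here. SLPI, a secreted protease inhibitor with antimicrobial activity, was at 15.5 ± 7.26 CPM in controls and 24.5 ± 9.47 CPM with PFA (log2 difference 0.66, SE 0.36, edgeR adjusted p 0.991). LYPD8, which binds flagellated bacteria, was at 966 ± 373 and 1244 ± 594 CPM. The galectins LGALS3 and LGALS4 differed by 0.02 (SE 0.14) and -0.19 (SE 0.16), and CHGA, whose product is cleaved to antimicrobial peptides, by -0.19 (SE 0.14). HAMP and BPIFB1 had no count in any ileum library, nor in any fitted liver library, so the lack of counts was not particular to the ileum. Whether reads of these genes could be counted was not tested.

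Of the 18 tested genes that make and carry IgA, 7 were higher and 11 lower, none called, with a median of -0.04. JCHAIN, which joins IgA into the polymer that PIGR carries, was at 838 ± 280 CPM in controls and 951 ± 329 CPM with PFA. XBP1, the factor of secretory cells, differed by 0.23 (SE 0.11, edgeR adjusted p 0.991), and CCL25, which attracts IgA-producing cells, by 0.05 (SE 0.18). TNFRSF13C and POU2AF1 had log2 differences of -1.84 (SE 0.91) and -1.18 (SE 0.71), and for both C-80 was the highest library, at 46.3 and 35.4 CPM. Without C-80 they were 0.38 (SE 0.35) and -0.12 (SE 0.53), so the sign of TNFRSF13C rested on that library. Of the 16 tested genes of the IL-17 and IL-22 axis, 8 were higher and 8 lower. TLR4 differed by 0.24 (SE 0.12), IL22RA1 by -0.25 (SE 0.18) and STAT6 by -0.12 (SE 0.10), while IL13RA1, STAT3 and NFKBIZ, the most abundant, stayed between -0.02 and 0.10.

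Markers of other cell types were measured beside these genes, and their part in the members' values was not tested. The B cell genes rested on C-80. With it all 7 tested were lower with PFA (median -1.94), MS4A1 at -4.34 (SE 1.47) and CD79B at -3.18 (SE 1.23), and without it 3 were higher and 4 lower (median -0.07), MS4A1 at 0.10 (SE 0.35) and CD79B at -0.13 (SE 0.61). Summed enterocyte genes ran from 26875 to 37925 CPM in controls and from 20140 to 31212 CPM with PFA, 3 of 10 higher and 7 lower (median -0.22), with ANPEP, a brush border peptidase, at -0.53 (SE 0.12), FABP6 at -0.79 (SE 0.34), SLC5A1 at -0.27 (SE 0.16) and SI at -0.18 (SE 0.21). The plasma cell sum was 956 to 1716 CPM in controls and 893 to 1780 CPM with PFA, the macrophage sum 520.1 to 1239 and 667 to 1243 CPM, and the T cell sum 372 to 469 and 371 to 545 CPM. The smooth muscle sum, which depends on how much of the wall was sampled, was 2157 to 8876 and 3481 to 10155 CPM, 6 of 8 genes higher (median 0.26), or 4 of 8 without C-80 (median 0.06). Neutrophil genes summed to at most 9.62 CPM, with 2 of 8 matched genes past the filter, and enteroendocrine genes summed to 174 to 341 CPM in controls and 194 to 357 CPM with PFA. The 3 tested Paneth genes were all lower, NOTUM at -1.71 (SE 0.34), LYZ as above and SOX9 at -0.05 (SE 0.20), and NOTUM had a mean of only 1.08 CPM. Of gastric-type genes TFF2 alone passed the filter. Of 6 genes shared with bile ducts, 1 was higher and 5 lower, with SPP1 at -1.23 (SE 0.36, mean 114 CPM), and EPCAM at 0.04 (SE 0.15). None of these genes was called (edgeR adjusted p of 0.991 or more). The study's own DESeq2 test, at an adjusted p of 0.05 and a fold above 2, listed ANPEP and NOTUM as differing with PFA. For ANPEP the log2 difference of -0.53 here lies under a fold of 2, so the estimates differ in size too.

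Ileum and liver were then compared in the 5 control pigs with both tissues. The libraries of each tissue bear titles of their own form, and the study gives a lower minimum RNA quality for liver. Sequencing run and RNA quality cannot be told apart from tissue here. All 6 members were called, 5 higher in the ileum and 1 lower, where 45.5% of 14982 genes were called in either direction, 24.6% as higher and 20.9% as lower. Such a count is therefore partly the general difference between the tissues, and the sizes are of more interest. Their median log2 difference was 7.56 beside 0.05 over all genes. Scaling bears on these values, since TMM factors and library totals alone place the ileum differently: with totals alone the log2 difference of PIGR was 4.53 in place of 3.43 and that of LCN2 -1.59 in place of -2.68.

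**Figure D3:**
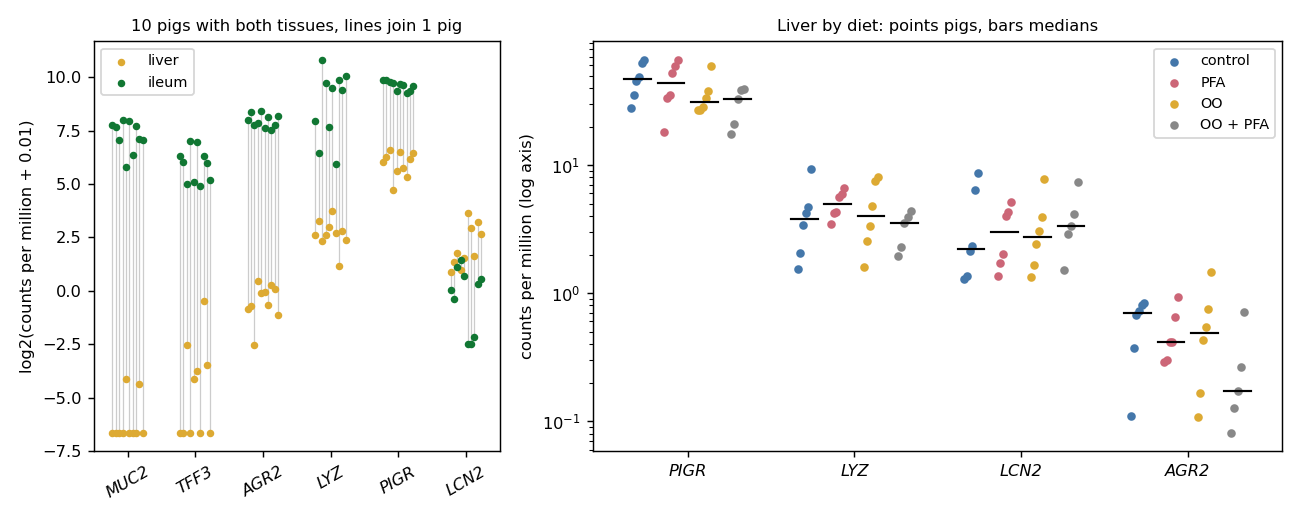
Left, level of the 6 members in ileum and liver of the 10 pigs with both tissues (vertical axis log2 of CPM + 0.01, grey lines joining the tissues of 1 pig, control and PFA pigs together). Right, the 4 members past the filter in liver by diet (vertical axis CPM on a log scale, points pigs, bars medians). In all, 5 members lie higher in the ileum in 10 of 10 pigs, LCN2 lies higher in the liver in 9 of 10, and the diets overlap in the liver.

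MUC2 and TFF3 were nearly absent from liver, and AGR2 was low there. MUC2 had 30811 counts in the ileum libraries of the 5 control pigs and 1 count in their liver libraries, 4 of which had none. The scaled ratio was 19473 with an exact 95% interval of 3495 to 769174 that covers counting error only, and the edgeR adjusted p was 1.08e-13. TFF3 had 12390 counts in the ileum and 20 in the liver, 13 of them in C-80, with a log2 difference of 8.52 (SE 0.64, adjusted p 1.91e-10). AGR2 had 33790 and 77 counts, with a log2 difference of 8.10 (SE 0.34, adjusted p 1.70e-14).

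LYZ and PIGR were also higher in the ileum but had clear liver levels. LYZ, a product of liver macrophages as well, differed by 7.03 on the log2 scale (SE 0.82, adjusted p 1.65e-07). On the scale of the joint fit its control levels were 247 to 1793 CPM in the ileum and 2.25 to 13.5 CPM in the liver. PIGR, which bile duct cells also use for IgA, differed by 3.43 (SE 0.28, adjusted p 8.30e-10), with 621 to 949 CPM in the ileum and 40.2 to 96.9 CPM in the liver. It had the smallest difference of the 5 members that were higher in the ileum.

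LCN2 went the other way. It was lower in the ileum by 2.68 on the log2 scale (SE 0.71, adjusted p 0.00214), with 0.169 to 2.14 CPM in the ileum and 1.86 to 12.5 CPM in the liver of the control pigs. Of the 10 pigs with both tissues, 9 were higher in the liver and P-134 was higher in the ileum. With library totals alone the liver was higher in 6 of 10 pigs, and the difference had an adjusted p of 0.0407.

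Other lists placed the tissues as follows, where 24.6% of all genes were called higher in the ileum and 20.9% lower. Of 17 goblet cell genes, 13 were called higher in the ileum and 2 lower (median log2 difference 4.35), with CLCA1 at 12.66 (SE 0.54) and SPINK4 at 9.99 (SE 0.38) among the higher and FOXA3 at -3.73 (SE 0.18) and FOXA1 at -2.20 (SE 0.12), forkhead factors that hepatocytes use too, the 2 lower. Of 14 O-glycosylation enzymes, 9 were called higher and 1 lower, with GALNT3 at 7.26 (SE 0.28), CHST4 at 8.88 (SE 0.64) and ST6GALNAC2 at -1.69 (SE 0.14). Of 20 antimicrobial genes, 12 were called higher and 7 lower, the higher including LGALS4 at 9.46 (SE 0.39) and the lower PGLYRP2, a serum amidase made by liver, at -7.38 (SE 0.19), and RNASE4 at -5.93 (SE 0.24). Of 18 IgA genes, 12 were called higher and 0 lower, with JCHAIN at 4.61 (SE 0.39). Of 17 genes of the IL-17 and IL-22 axis, 3 were called higher, among them IL23R at 3.40 (SE 0.41). The median log2 difference of that list was 0.01, beside 0.05 over all genes.

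In the liver no diet contrast was called for the 4 members that passed the filter there (AGR2, LYZ, PIGR and LCN2). MUC2 had 0 counts in 18 of 23 fitted liver libraries and at most 4, and TFF3 0 counts in 11 and at most 13, and both failed the filter. TFF3 in liver had 24 counts in 5 of 6 control libraries, 13 of them in C-80, against 1 count in 1 of 6 PFA libraries, 7 counts in 3 of 6 OO libraries and 4 counts in 3 of 5 OO + PFA libraries. An exact two-sided permutation test of its mean CPM gave p = 0.0152 for PFA against control, adjusted 0.0909 over 6 tests of MUC2 and TFF3 in liver, a test added after these counts were seen, and edgeR with no filter gave an adjusted p of 0.427 over 19437 genes. For the other 5 tests the exact permutation p ran from 0.439 to 0.909. MUC2 in liver had 5 counts in controls and 1 count in each other diet, too few to show a difference at this depth. None of the 4 was called in PFA against control (0.0% of 13831 genes called), in OO against control (1.11% called, 153 genes) or in OO + PFA against OO (0.0% called). The last 2 contrasts share the OO pigs and the first 2 the control pigs, so their values are not independent of one another.

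**Figure D4:**
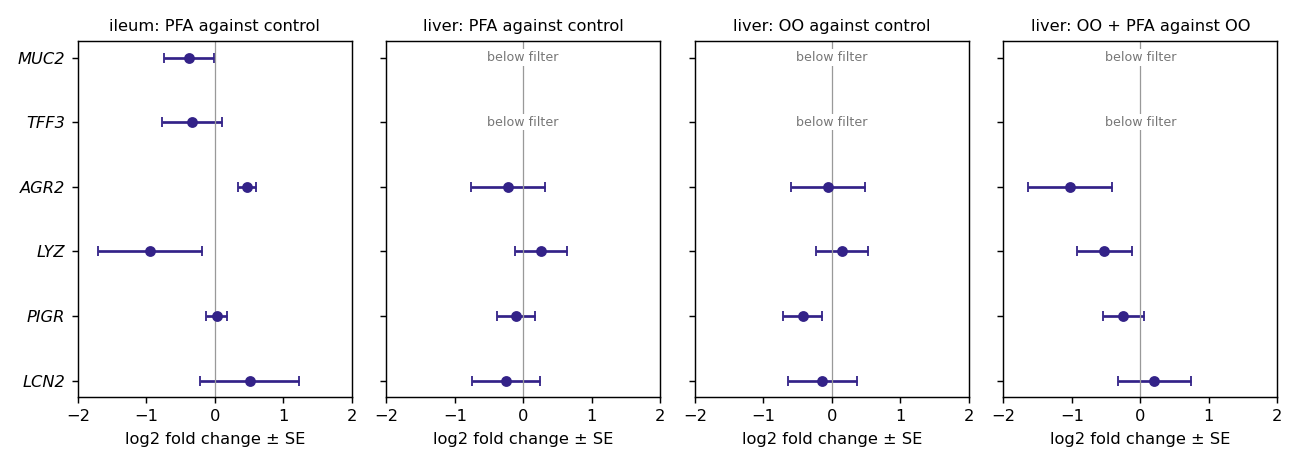
Log2 fold change with its SE (horizontal axis) of the 6 members (vertical axis) in the 4 diet contrasts, from ileum on the left to liver. The value is marked as below the filter for MUC2 and TFF3 in liver. All intervals of 1 SE lie within 2 log2 units of 0, and no value was called.

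PIGR in liver ran from 27.7 to 65.8 CPM in controls (median 47.1), 18.2 to 66.1 with PFA (43.8), 26.9 to 59.6 with OO (30.9) and 17.4 to 39.4 with OO + PFA (32.7). The groups overlapped, although 5 of 6 OO pigs lay below the control median. Its log2 differences were -0.11 (SE 0.28) for PFA, -0.42 (SE 0.29) for OO and -0.25 (SE 0.30) for OO + PFA against OO, with edgeR adjusted p of 0.914, 0.405 and 0.830. LYZ in liver ran from 1.55 to 9.37 CPM in controls (median 3.80), 3.46 to 6.60 with PFA (4.96), 1.61 to 8.12 with OO (4.04) and 1.93 to 4.39 with OO + PFA (3.55). Its log2 differences in the same order were 0.26 (SE 0.38), 0.15 (SE 0.38) and -0.53 (SE 0.41).

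LCN2, the member with the strongest link to the acute phase response of liver, ran from 1.29 to 8.70 CPM in controls (median 2.22), 1.35 to 5.17 with PFA (2.99), 1.35 to 7.84 with OO (2.75) and 1.50 to 7.35 with OO + PFA (3.32). The 4 groups covered nearly the same range, and the log2 differences were -0.25 (SE 0.50), -0.14 (SE 0.50) and 0.21 (SE 0.53). AGR2 was near the detection limit, with 2 to 33 counts per library. Its control levels ran from 0.110 to 0.831 CPM (median 0.696), PFA from 0.291 to 0.936 (0.413), OO from 0.107 to 1.46 (0.488) and OO + PFA from 0.0812 to 0.717 (0.172). The log2 difference of OO + PFA against OO was -1.03 (SE 0.61, edgeR adjusted p 0.645), the largest of the 12 liver values, and it was -0.56 (SE 0.59, adjusted p 0.735) without OO-130, -1.76 (SE 0.65, adjusted p 0.633) without OP-126 and -0.49 (SE 0.62, adjusted p 0.730) with OP-77 included.

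Around these members, 1 goblet cell gene was called in liver, CREB3L1, a membrane-bound factor of the secretory pathway, which rose with OO by 1.21 on the log2 scale (SE 0.29, edgeR adjusted p 0.0245), from 7.33 ± 1.96 CPM to 17.1 ± 9.50 CPM (SD, n = 6 each). It was 1 of 9 goblet cell genes tested there. Of 11 O-glycosylation enzymes and of 15 antimicrobial genes none was called with OO, although ST6GALNAC2 had an adjusted p of 0.00989 at a log2 difference of 0.61 (SE 0.13). No gene of these 3 lists was called with PFA or with OO + PFA against OO.

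The effect of PFA in the ileum was finally tested against that in the liver of the same 10 pigs. None of the 6 members was called, and 0.0% of 14982 genes were called. The difference of log2 fold changes, ileum minus liver, was 0.41 (SE 0.43) for AGR2, -1.03 (SE 0.91) for LYZ, 0.35 (SE 0.36) for PIGR and 1.01 (SE 0.95) for LCN2. For TFF3 it was 3.35 (SE 1.74, edgeR adjusted p 0.976) and for MUC2 -0.48 (SE 2.76), both resting on the few liver counts given above.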

How the data were processed

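Total RNA of ileum and liver was sequenced as poly(A)-selected, paired-end libraries. According to the study's methods and the labels, the authors aligned reads with STAR 2.6.1d to Sscrofa11.1 and counted them per gene with HTSeq, and the deposited values are raw counts, not normalized. The annotation release and counting options are not given in the sources used here. The 34 columns of the tables equalled the single-sample files. HTSeq's own rows for unassigned, ambiguous or multiply aligned read pairs stayed outside library sizes, and the multiply aligned pairs amounted to 2.55% to 23.2% of a library.

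Counts were filtered by filterByExpr, scaled by TMM and tested with edgeR 4.0.16 (quasi-likelihood F test, R 4.3.3, Benjamini-Hochberg adjustment over all genes tested). Calls required a 2-fold difference or more together with an adjusted p not above 0.05. The SE was derived from the log2 fold change and the F statistic. Ileum libraries (10) were fitted alone, liver libraries (23, without OP-77) together with 4 diet groups, and both tissues of 10 pigs (20 libraries) in a fit of their own. CPM within a tissue come from that tissue's fit. Fits were tested on simulated data with the same spread for every gene, which does not represent the variable members MUC2, TFF3, LCN2 and LYZ. DESeq2 1.42.0, RLE factors, other filters, leaving out each pig, a block for pig, a term for whether the title begins PigLiv or PL, a GC correction and totals without factors were alternatives, the last 2 chosen after seeing the data, as were the ileum lists without C-80 and the tests of MUC2 and TFF3 in liver. Tissues of the same pig share an animal, so the pig is the pairing, and the correlation of their deviations from group means ran from -0.18 to 0.46.

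Correlations were taken on log2 CPM (prior count 2) with 100000 permutations, two-sided. The members and lists were chosen with earlier results of these data known. Symbols came from a gene name table (14855 of 25880 genes), and positions, exon lengths, GC content and upstream windows from RefSeq on Sscrofa11.1. Besides all members, genes were named by rule: the called genes of each list (up to 5), otherwise the 3 of smallest p, the 3 most abundant, and the 5 most like MUC2 or LCN2. A gene that the rule names is not reported here. SPDEF, ATOH1, TFF2, CREB3L1, FOXA3 and CLCA1 were chosen for their likeness to MUC2 after their values were seen. Since p-values rest on pigs of 1 pen per diet, they measure the spread between pigs and not between pens.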

Additional observations from a re-analysis of the deposited data

Results flagged for a closer look

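Of 30 groups examined, 2 held a library far from the others. Only this number of groups is near what chance gives (1 in 20 groups), and it does not measure how far each library lay. The same libraries recur across the groups, so the groups are not independent and this comparison is rough. PIGR in the liver of OO pigs was 59.6 CPM in OO-130 against 26.9 to 37.6 CPM in the other 5. Multiply aligned read pairs made up 11.6% of OO-130 and between 3.16% and 6.87% of the remaining OO livers, and their part in the value was not tested. The summed B cell genes of control ileum were 652.5 CPM in C-80 against 25.0 to 39.7 CPM in the other 4. C-80 had the lowest PIGR and AGR2 of the 10 ileum pigs, and its MUC2, TFF3, LYZ and LCN2 lay within the range of the others.

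The liver library OP-77, left out of the fits, had 0.747 CPM of TFF3 (14 counts) against 0 to 0.457 CPM in control livers and 0.907 CPM of AGR2 (17 counts) against 0.110 to 0.784 CPM, all as unscaled CPM. Over all fitted livers TFF3 was at most 0.457 CPM, in C-80, while AGR2 was higher than in OP-77 in P-134 (1.02 CPM) and OO-130 (1.26 CPM). In that library 23.2% of read pairs had several alignments and 48.3% of counts fell on the 10 most abundant genes.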

How the results depend on the processing

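Of 522 member values recomputed under the alternatives, 497 kept their direction and their side of the threshold, 23 changed sign without being called in either setting, and 2 crossed the threshold, both correlations with MUC2. With the pig as a block in the two-tissue fit, all 6 members were still called between the tissues (log2 difference of MUC2 13.56, LCN2 -2.67). They were among 7081 genes called with the block, against 6822 without it. The block changed no call of a member, and 0 genes differed in their PFA effect. Requiring at least 10 counts in every library left 2 members called between the tissues and 4311 genes in all, because fewer genes could be tested. With the GC correction 0 members remained related to MUC2 past the threshold (TFF3 r = 0.71), and leaving out single pigs gave 1 to 2, AGR2 joining at r = -0.76 (adjusted p 0.0424) without P-107. Over all genes, DESeq2 called 2 for PFA in the ileum, 3 for PFA in the liver, 401 for OO and 25 for OO + PFA against OO, where edgeR called 0, 0, 153 and 0. Leaving out single pigs moved the count for OO from 84 (without OO-130) to 508 (without OO-97), with 94 without C-80, 99 without C-85, 96 without OO-102 and 400 without OO-74, and that for OO + PFA against OO from 0 to 7 (without OO-102 or OP-105, and 3 without OO-97), and using all 24 liver libraries gave 1 for the latter. The cause of these moves was not tested, and none concerned a member. Depth limits LCN2 in the ileum and AGR2, TFF3 and MUC2 in the liver.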
